A study of Mus musculus with 6 samples.

Results

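Pax2, Pax8, Lhx1, Wt1, Six2, Sall1, Osr1, Irx1, Irx2 and Pou3f3 encode transcription factors of nephron development, and their chromatin was examined in the adult S1 proximal tubule, the stretch of tubule next to the glomerulus. Open regions were assigned to a gene when the summit of a peak lay in the gene body or within 50 kb of it (GRCm38 with GENCODE M21 gene models). This gave 118 of the 99359 open regions of the study for the 10 genes. The data were 6 libraries of ATAC-seq, in which a transposase cuts accessible DNA and adds sequencing adapters. All animals were wild-type male C57BL/6 mice (Taconic), operated at 7 weeks of age, and tissue was taken 24 h later. The Sham group (3 libraries) had a sham operation and the UNx group (3 libraries) had 1 kidney removed surgically (unilateral nephrectomy). Each library was made from 3 tubules dissected by hand. Whether the 3 libraries of a group come from separate mice is not stated in the labels, so the spread between libraries may be partly technical.

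Nephrons form when the ureteric bud induces the surrounding metanephric mesenchyme. Osr1, Six2, Sall1, Wt1 and Pax2 act in the mesenchyme and its nephron progenitors, Pax8 and Lhx1 act as the mesenchyme turns into epithelium and the renal vesicle forms, and Irx1, Irx2 and Pou3f3 (Brn1) pattern the segments of the young nephron. Six2 keeps progenitors undifferentiated and is shut off as they become epithelium, and Wt1 persists in adult podocytes.

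Each library had its own peak list of 77355 to 100999 peaks, called without pooling, and the lists hold no read counts, so depth is unknown. Peak strength was compared as a percentile rank: each list was cut to its 77355 strongest peaks by −log10 q, the strongest peak has a rank near 100, and a region not among those peaks has 0. A rank therefore places a peak among the other peaks of its own library and is not an amount of DNA. The Sham 2 list was the shortest and weakest, with a median −log10 q of 12.1 against 14.5 to 26.5 in the others. The starts of all 10 proximal tubule marker genes examined, Slc5a2, Slc34a1, Lrp2 and Cubn among them, held a peak in 6 of 6 lists. Those of 4 immune marker genes held none in any list. None of 5 endothelial marker genes held one in all 6, but each was open in 1 to 4 lists (Cdh5 and Tie1 in 4). The mean rank over the endothelial markers was 3.47 to 11.8 in the Sham and 0 to 7.88 in the UNx libraries. Some markers of later segments and of stroma were open in 6 of 6 lists: 2 of 6 for the loop of Henle and distal tubule (Umod and Slc12a1), 3 of 6 for the collecting duct (Scnn1g, Aqp3 and Calb1) and 1 of 6 for stroma (Col1a1), while Slc12a3, Pvalb, Aqp2, Gata3, Pdgfrb, Tagln and Acta2 were at 0 in all lists. The mean rank over the loop and distal markers was 21.3 to 25.3 in the Sham and 18.8 to 21.8 in the UNx libraries, and over the collecting duct markers 37.5 to 41.2 and 39.8 to 46.1. The part of such cells in the results was not tested. In tubules measured in bulk, a site that is less open in every cell and a site that is open in fewer cells cannot be told apart.

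The sequences below are 201 bases of the GRCm38 reference (RefSeq) centred on the strongest summit, and they were chosen because the results turn on these regions. Distances given with them are to the nearest annotated start of the gene. The first 4 are the strongest regions away from any protein-coding start at Osr1, Wt1, Pax2 and Pax8. The next 3 are examples of regions at Pax2 and Six2 whose Sham and UNx values did not overlap: the Pax2 region found in UNx lists only, the region of smallest adjusted p and the strongest distal region of Six2. Capitals mark the only match found in them to 8 short strings that transcription factor families bind, the HNF1 string GTTAATNAT, and sequences in lower case throughout held no match.
Osr1, 10547 bp downstream of its start (chr12:9584888-9585088, + strand): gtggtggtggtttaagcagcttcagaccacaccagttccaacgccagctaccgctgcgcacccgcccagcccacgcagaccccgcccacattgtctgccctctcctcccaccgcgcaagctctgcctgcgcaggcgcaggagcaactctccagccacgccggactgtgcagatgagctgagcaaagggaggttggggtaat
Wt1, 17526 bp upstream (chr2:105108903-105109103, + strand): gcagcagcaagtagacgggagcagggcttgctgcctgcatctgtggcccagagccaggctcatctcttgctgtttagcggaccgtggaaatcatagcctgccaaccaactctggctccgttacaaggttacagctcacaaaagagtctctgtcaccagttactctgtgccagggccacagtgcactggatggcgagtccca
Pax2, 5090 bp upstream (chr19:44750855-44751055, + strand): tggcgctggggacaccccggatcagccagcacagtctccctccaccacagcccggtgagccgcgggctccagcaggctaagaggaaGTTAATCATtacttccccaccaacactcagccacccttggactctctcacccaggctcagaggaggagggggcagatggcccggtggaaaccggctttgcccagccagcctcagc
Pax8, intron, 22152 bp downstream (chr2:24453312-24453512, + strand): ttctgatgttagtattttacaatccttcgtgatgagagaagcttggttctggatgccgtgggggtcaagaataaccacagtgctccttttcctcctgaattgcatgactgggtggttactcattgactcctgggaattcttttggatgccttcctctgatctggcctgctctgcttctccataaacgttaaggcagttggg
Pax2, intron, 2538 bp downstream (chr19:44759832-44760032, + strand): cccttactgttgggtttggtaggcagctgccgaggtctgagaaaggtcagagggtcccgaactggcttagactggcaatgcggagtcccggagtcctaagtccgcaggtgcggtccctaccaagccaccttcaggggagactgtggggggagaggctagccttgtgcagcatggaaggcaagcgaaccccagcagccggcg
Pax2, beyond the 3′ end of the gene (chr19:44838478-44838678, + strand): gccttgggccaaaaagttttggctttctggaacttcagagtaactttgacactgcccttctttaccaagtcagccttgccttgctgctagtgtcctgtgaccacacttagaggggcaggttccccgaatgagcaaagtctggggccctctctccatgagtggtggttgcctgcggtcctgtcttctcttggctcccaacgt
Six2, 23091 bp downstream (chr17:85665063-85665263, + strand): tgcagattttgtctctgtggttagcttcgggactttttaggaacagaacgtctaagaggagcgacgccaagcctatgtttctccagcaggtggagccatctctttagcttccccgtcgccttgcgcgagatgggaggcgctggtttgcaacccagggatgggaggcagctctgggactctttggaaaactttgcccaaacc

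The 10 genes divided into 7 whose start held a peak in every library and 3 whose start held one in only some. A start was counted as open in a list when a peak had its summit within 1 kb of an annotated start of the gene. Sall1, Pax8, Lhx1, Pax2, Osr1, Wt1 and Irx2 were open in 6 of 6 lists, Pou3f3 in 3, Six2 in 2 and Irx1 in 1. Over all 21911 protein-coding genes, 56.6% had a start open in 6 of 6 lists and 36.6% in none. None of the 10 genes was at 0 in all lists, and the start peaks of Pou3f3, Six2 and Irx1 ranked at 22.9 or lower. When every deposited peak was counted, Six2 was open in 4, Irx1 in 5 and Pou3f3 in 5 of 6 lists.

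**Figure D1:**
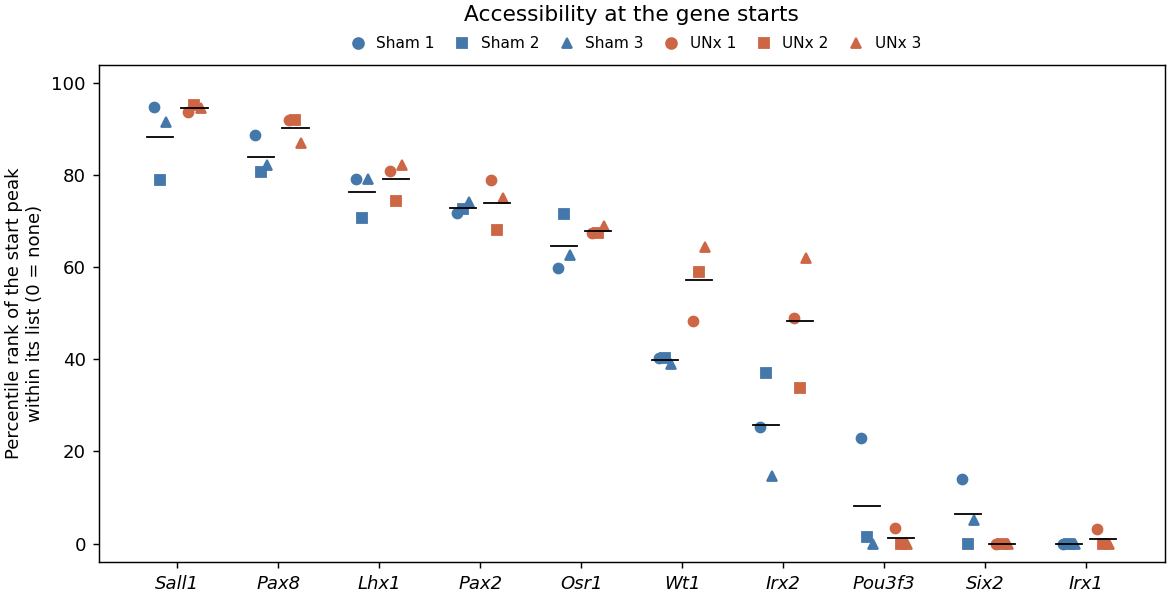
Percentile rank (vertical axis, 0 to 100, 0 where no peak was ranked) of the strongest peak within 1 kb of an annotated start of each gene, in each Sham library (blue) and UNx library (orange). Symbols give the replicate and black lines the group means (n = 3). Sall1 to Osr1 lie above 59 in every library, Wt1 and Irx2 lie lower with UNx means above Sham means, and Pou3f3, Six2 and Irx1 are at or near 0 in most libraries.

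Sall1, a zinc finger factor of the mesenchyme and its nephron progenitors, had the strongest start of the 10. Its start ranked at 94.7, 78.9 and 91.6 after Sham and at 93.8, 95.2 and 94.6 after UNx. The low value was that of Sham 2, and the other Sham values lay within 4 points of the UNx values. Pax8, a paired-box factor of the early renal epithelium, followed with 88.8, 80.8 and 82.3 after Sham and 91.9, 92.1 and 87.0 after UNx. One UNx value lay below the highest Sham value, so the groups overlapped. Lhx1, a LIM homeobox factor of the renal vesicle, had 79.2, 70.8 and 79.3 after Sham and 80.9, 74.4 and 82.3 after UNx. Pax2, a paired-box factor of the bud and the mesenchyme, had 71.7, 72.6 and 74.3 after Sham and 79.0, 68.1 and 75.1 after UNx. Osr1, one of the earliest factors of the kidney field, had 59.9, 71.6 and 62.6 after Sham and 67.5, 67.5 and 68.9 after UNx. For Lhx1, Pax2 and Osr1 the groups overlapped throughout. These 5 starts were open but not unusually strong: the median mean rank of starts open in 6 of 6 lists was 87.5, and only Sall1 lay above it, with Pax8 close by at 87.1.

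Wt1 and Irx2 had the weakest starts among those open in every library, and both had higher means after UNx. Wt1, a zinc finger factor of progenitors and podocytes, ranked at 40.2, 40.2 and 38.9 after Sham and at 48.3, 58.9 and 64.4 after UNx, so the groups did not overlap. The difference was 17.4 points (SE 8.17) and did not pass the test (limma adjusted p = 0.262 over all regions). The start of the antisense RNA gene Wt1os lies in the same region. Irx2, an Iroquois homeobox factor, ranked at 25.2, 37.1 and 14.7 after Sham and at 49.1, 33.9 and 62.0 after UNx, and here UNx 2 lay below Sham 2. The difference of 22.7 points (SE 10.6) did not pass either (limma adjusted p = 0.260). Only 6.88% of starts open in 6 of 6 lists had a lower mean rank than Wt1, and 3.10% had a lower one than Irx2. In the authors' lists the fold enrichment at the Wt1 start was 7.19, 5.63 and 6.86 after Sham and 6.71, 9.33 and 12.3 after UNx, where the UNx 1 value lay within the Sham range.

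Among podocyte markers, 4 of 8 had a start open in 6 of 6 lists, Podxl and Synpo among them, and Tcf21 was at 0 in all lists. Their mean rank ran from 33.2 to 37.2 over the Sham libraries and from 36.5 to 39.3 over the UNx libraries. One of the 7 tested podocyte markers passed the test, Synpo, where 0.788% of all tested regions passed. Its start ranked at 53.9 ± 8.59 after Sham and 77.5 ± 5.03 after UNx (SD, n = 3 each), and the whole tested region, which can include a peak farther from the start, differed by 31.1 points (limma adjusted p = 0.0373). The 4 genes examined as markers of the parietal cells that line Bowman's capsule were Cldn1, Cldn2, Ncam1 and Akap12. All 4 were open in 6 of 6 lists, with means of 71.0 to 73.9 after Sham and 71.2 to 76.2 after UNx. Whether these genes are particular to parietal cells was not tested. The part of podocytes and parietal cells in the values at Wt1 and Pax2 was not tested either.

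The 3 genes whose starts were mostly closed had few and weak peaks there. Pou3f3, a POU homeobox factor of the loop of Henle and distal tubule, ranked at 22.9 in Sham 1, 1.31 in Sham 2 and 3.39 in UNx 1 and at 0 in the other libraries. Six2, the homeobox factor of nephron progenitors, ranked at 14.0 in Sham 1 and 5.22 in Sham 3 and at 0 in the rest. Irx1, an Iroquois factor that neighbours Irx2 on chromosome 13, ranked at 3.18 in UNx 1 and at 0 elsewhere. No start region of these 3 genes was in the 3 lists needed for a test.

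Closed and open starts did not divide by their CpG content. The ratio of observed to expected CpG in 1 kb around the start was 0.931 at Six2, 0.897 at Irx1 and 0.657 at Pou3f3, against 0.919 at Irx2, 0.842 at Lhx1, 0.794 at Wt1, 0.701 at Pax2, 0.634 at Sall1, 0.594 at Osr1 and 0.256 at Pax8. The medians over all protein-coding genes were 0.721 for starts open in 6 of 6 lists and 0.190 for starts open in none. Pax8 was thus open with a low ratio and Six2 and Irx1 were closed or nearly closed with high ones. Of the 4453 genes with a ratio above 0.8, 429 (9.63%) were open in fewer than 6 lists, and Six2 and Irx1 were among these. The 200 bases before the start of Pax8 and of Six2 are shown, on the gene's own strand, with each CG in capitals to display this contrast. They held 6 CG in Pax8 and 21 in Six2.
Pax8 (chr2:24475565-24475764, - strand): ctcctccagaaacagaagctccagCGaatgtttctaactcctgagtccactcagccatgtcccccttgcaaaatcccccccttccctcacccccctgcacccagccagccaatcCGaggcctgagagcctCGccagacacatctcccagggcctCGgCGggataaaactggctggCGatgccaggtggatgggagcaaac
Six2 (chr17:85688275-85688474, - strand): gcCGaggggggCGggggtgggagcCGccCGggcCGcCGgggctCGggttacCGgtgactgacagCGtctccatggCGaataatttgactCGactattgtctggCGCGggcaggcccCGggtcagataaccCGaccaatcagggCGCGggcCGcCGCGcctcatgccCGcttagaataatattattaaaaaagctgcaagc

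The number of peaks in the gene body and 50 kb around it also differed between the genes. Pax2 had 26, 25 and 26 peaks after Sham and 25, 28 and 28 after UNx. Pax8 had 26, 24 and 24 after Sham and 28, 24 and 28 after UNx. Sall1 had 15, 13 and 14 after Sham and 16, 15 and 15 after UNx. Per 100 kb this came to 16.6 peaks at Pax8, 14.5 at Pax2 and 12.5 at Sall1, where the median over all protein-coding genes was 5.07. Irx1 (1.89 per 100 kb), Six2 (2.72), Osr1 (2.84), Irx2 (3.01), Pou3f3 (3.57) and Wt1 (4.65) lay below that median and Lhx1 (7.93) above it. Osr1 and Irx2 therefore combined a start open in every library with few peaks around it.

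**Figure D2:**
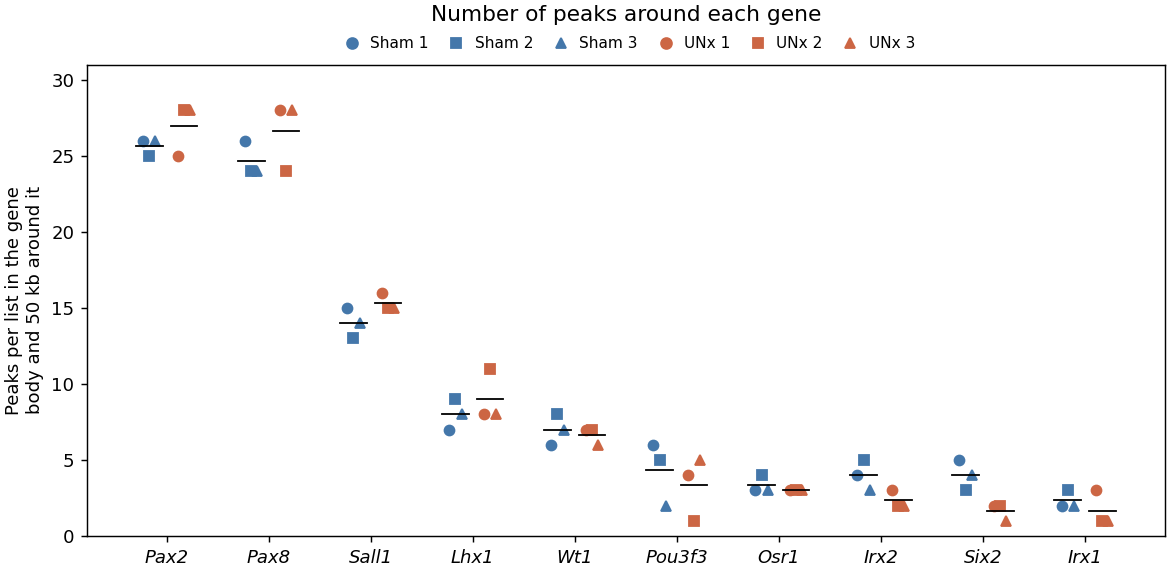
Number of peaks (vertical axis) in each gene body and the 50 kb on either side, in the equal-length list of each Sham library (blue) and UNx library (orange), with group means as black lines (n = 3). Pax2 and Pax8 have 24 to 28 peaks in every library, and Six2 has 3 to 5 after Sham and 1 to 2 after UNx.

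No gene passed the test on the number of peaks. Over 18382 protein-coding genes with a mean of at least 1 peak per list, 0% passed at an adjusted p under 0.05 and 10.1% had an unadjusted p under 0.05 (limma on log2 of the number plus 1). Six2 had 5, 3 and 4 peaks after Sham and 2, 2 and 1 after UNx, which did not overlap, with a difference of −0.91 on the log2 scale (SE 0.23, limma adjusted p = 0.315). Irx2 had 4, 5 and 3 peaks after Sham and 3, 2 and 2 after UNx, a difference of −0.58 (SE 0.20, limma adjusted p = 0.376). These 2 of the 10 genes were past the unadjusted threshold. At Irx2 the start had a higher mean rank after UNx while the number of peaks around it was lower. When all deposited peaks were counted, Six2 had 5, 3 and 5 after Sham and 2, 4 and 3 after UNx, and the difference shrank to −0.42.

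The strongest regions away from a protein-coding start were at Osr1 and Wt1, not at the genes with the most peaks. The Osr1 region 10547 bp downstream of the start ranked at 95.7, 94.7 and 94.7 after Sham and at 89.1, 95.0 and 95.5 after UNx, above the Osr1 start itself in all 6 libraries. The Wt1 region 17526 bp upstream, in the body of Wt1os, ranked at 95.7, 93.2 and 92.0 after Sham and at 86.9, 96.0 and 88.9 after UNx, likewise above the Wt1 start in all 6. Neither differed between operations beyond the spread (limma adjusted p = 0.635 and 0.499). Inside Wt1, no region but the start had a summit in any of the equal-length lists. The Osr1 sequence shown above is rich in G and C (64.2%) and holds 12 CG, and the Wt1 sequence has 56.7% and 5 CG.

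At Pax2 the strongest such region lay 5090 bp upstream and ranked at 89.9, 84.0 and 82.6 after Sham and at 90.7, 88.0 and 92.9 after UNx. It is the one whose sequence holds the HNF1 string. At Pax8 it lay in an intron, 22152 bp downstream, and ranked at 82.0, 91.0 and 89.0 after Sham and at 91.4, 88.2 and 86.3 after UNx, close to the Pax8 start. The corresponding mean ranks over the 6 libraries were 76.9 at Sall1 (30745 bp downstream), 62.9 at Lhx1 (39888 bp upstream), 60.8 at Six2 (23091 bp downstream), 46.2 at Irx1 (13638 bp downstream), 38.2 at Irx2 (11497 bp downstream) and 31.4 at Pou3f3 (18978 bp downstream). Six2, Irx1 and Pou3f3 thus each had 1 region in 6 of 6 lists although their starts were mostly closed. The strongest region near Lhx1, with mean ranks of 98.0 after Sham and 95.1 after UNx, lies at the start of its neighbour Aatf.

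Of the 118 regions, 67 (56.8%) were in 6 lists and 18 (15.3%) in 1 list, near the 53.4% and 16.3% of all regions. By position, 15 lay at a start of the gene, 32 in its introns, 3 in its exons and 2 in its untranslated regions, 45 between genes, 15 in the body of a noncoding gene, 5 in the body of another protein-coding gene and 1 at the start of one. Pax2 held 32 regions, Pax8 30, Sall1 18, Lhx1 9, Wt1 7, Pou3f3 7, Irx1 5, Six2 4, Osr1 3 and Irx2 3. The window set these numbers. The summit just inside it was 49.997 kb from Pax2, with mean ranks of 53.3 after Sham and 61.9 after UNx. The one just outside was 50.149 kb from Irx2, with 60.9 and 56.6.

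**Figure D3:**
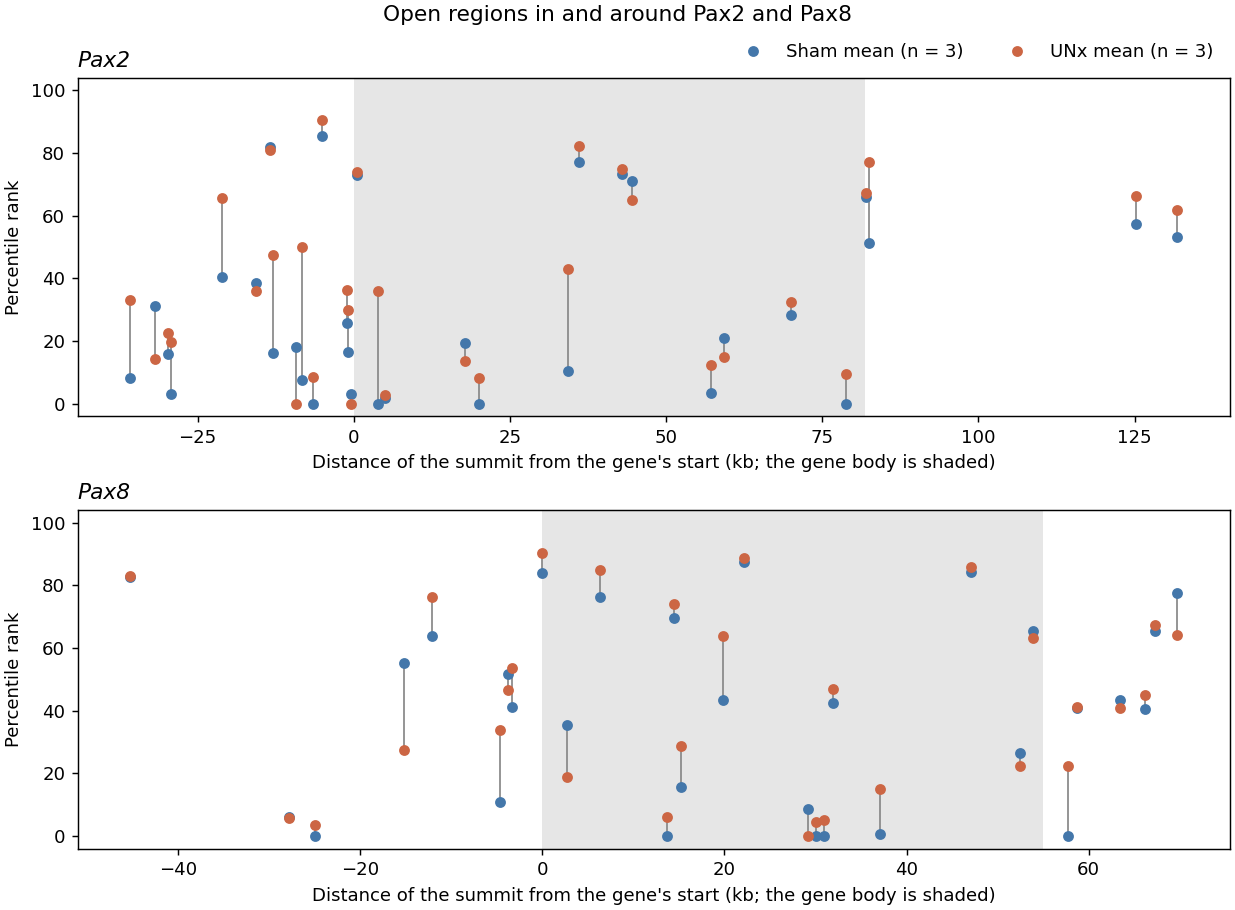
Mean percentile rank (vertical axis) of every region around Pax2 (upper panel) and Pax8 (lower panel) after Sham (blue) and UNx (orange), against the distance of its summit from the gene's start in kb in the direction of transcription. Gray lines join the means of a region (n = 3 each), and the gene body is shaded. At Pax2 the distances run from the upstream one of its 2 annotated starts. The strongest regions of both genes lie close together in the 2 groups. The widest gaps are at regions of low or middle rank, upward after UNx at Pax2 and in both directions at Pax8. Some narrower Pax2 gaps go down, from 18.3 to 0 at 9282 bp upstream and from 31.2 to 14.2 at 31856 bp upstream.

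A region was tested when it was in at least 3 of the 6 lists, which left 88 of the 118 (27 at Pax2, 25 at Pax8, 12 at Sall1, 7 at Lhx1, 6 at Wt1, 3 each at Osr1 and Irx2, 2 each at Six2 and Pou3f3, and 1 at Irx1). None of the 88 passed, where 0.788% of all 74781 tested regions did (limma adjusted p under 0.05). An unadjusted p under 0.05 was found for 17 (19.3%), near the background of 18.6%. Of these, 13 had higher ranks after UNx and 4 after Sham, where 9.08% of all tested regions had an unadjusted p under 0.05 and were higher after UNx. All 3 UNx values lay above all 3 Sham values at 14 regions (15.9%, background 12.0%), and the reverse held at 6 (6.82%, background 11.7%). The shares of separated regions therefore lay a few points from the background in both directions.

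The mean rank was higher after UNx at 62 of the 88 tested regions (70.5%, against 49.9% of all tested regions), with a median difference of 4.38 points. Among all 118 regions it was 82 (69.5%). The size of this majority depended on the processing. It stayed above the share of all tested regions in every alternative for which both shares were computed. With ranking by fold enrichment instead of −log10 q it was lowest, 40 of 75 (53.3%, against 37493 of 74925 of all tested regions). Without Sham 2 it was 51 of 87 (58.6%, against 48.7%). With all deposited peaks it was highest, 84 of 105 (80%, against 60.3%). The GC content of the 88 regions had a median of 53.5% against 49.6% over all tested regions. After removal of each library's trend with GC content, 58 of the 88 were higher after UNx (65.9%, against 49.1%). Regions of 1 gene share their surroundings and are not independent.

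**Figure D4:**
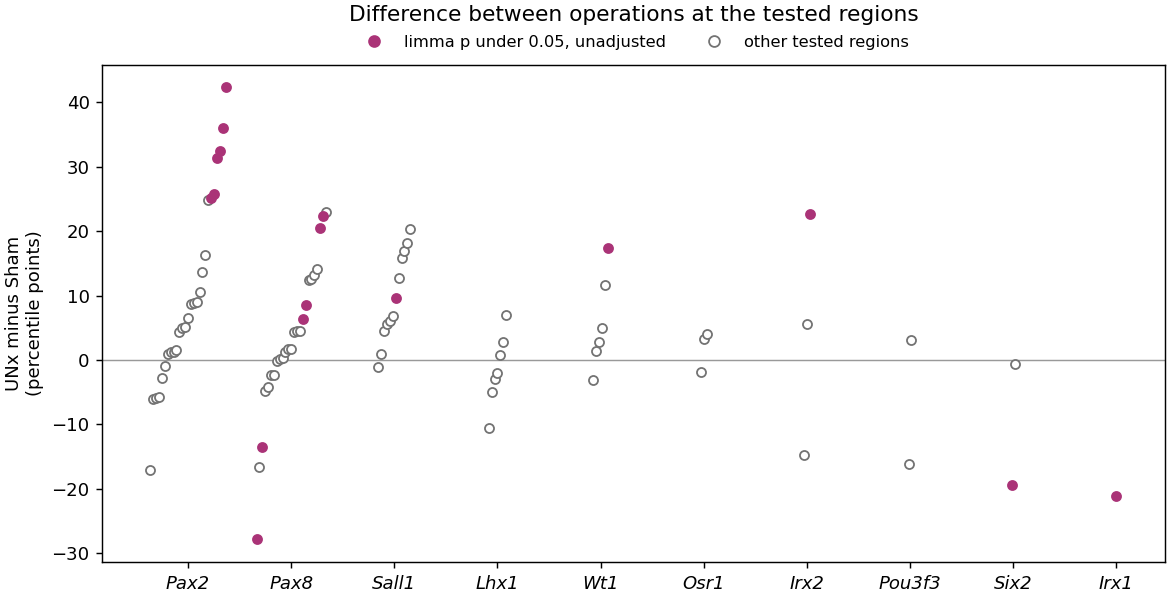
Difference in mean percentile rank, UNx minus Sham (vertical axis, percentile points), of the 88 tested regions by gene, each point a region, ordered by its difference within the gene. Filled points had an unadjusted limma p under 0.05, and no region passed after adjustment. The filled Pax2 points all lie above 0, and those of Pax8 lie on both sides.

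The 4 widest differences among the 88 regions were all at Pax2. The mean rank was higher after UNx at 21 of its 27 tested regions (background 49.9%). At 7 of them all UNx values lay above all Sham values (background 12.0%). At 1 region, 31856 bp upstream, all Sham values lay above all UNx values, with means of 31.2 and 14.2 (background 11.7%). With ranking by fold enrichment 12 of 20 were higher after UNx. The smallest adjusted p of all 88 regions was at the Pax2 region at chr19:44838232-44838909, just beyond the 3′ end of the gene. It ranked at 52.3, 47.5 and 54.2 after Sham and at 80.8, 71.3 and 79.3 after UNx. The difference of 25.8 points (SE 6.00) lay at the threshold without passing it (limma adjusted p = 0.0511). A region about as strong beside it, at chr19:44837903-44838168, had mean ranks of 66.0 after Sham and 67.2 after UNx, so the gap was not shared by its neighbour.

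The 4 widest differences at Pax2 were at weaker regions. The largest was 8350 bp upstream, with 23.3, 0 and 0 after Sham and 59.2, 46.9 and 44.2 after UNx, a difference of 42.3 points (SE 11.0, limma adjusted p = 0.0684). An intronic region 2538 bp downstream of a start was at 0 in all Sham lists and at 30.1, 17.8 and 60.1 in the UNx lists (limma adjusted p = 0.112). A second intronic region, 32929 bp downstream, ranked at 13.3, 14.5 and 4.01 after Sham and at 53.5, 39.7 and 36.1 after UNx (limma adjusted p = 0.123). A region 12850 bp upstream ranked at 0, 37.6 and 10.9 after Sham and at 42.8, 43.2 and 56.7 after UNx (limma adjusted p = 0.156). At these 4 regions the Sham values reached at most 37.6, and none passed the test. A region at 0 in 3 lists reached the test through the UNx lists alone, so its difference follows in part from the filter. The regions 8350 and 12850 bp upstream, in 1 and 2 Sham lists, also needed their UNx lists to be tested. Their differences follow in part from the filter too. A region of middle rank, 21081 bp upstream, ranked at 40.3, 40.9 and 40.3 after Sham and at 68.2, 69.5 and 59.2 after UNx, without overlap, a difference of 25.1 points (SE 7.39, limma adjusted p = 0.0943). The Pax2 start and the region 5090 bp upstream, both stronger, differed by 1.22 and 5.05 points.

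Pax8, with nearly as many regions as Pax2, had differences of both signs. The mean rank was higher after UNx at 17 of its 25 tested regions (background 49.9%), with ranking by fold enrichment at 9 of 21. Some of the 25 lie in the body of the neighbouring gene Psd4. The largest difference was a lower value after UNx, 15149 bp upstream, with 57.2, 34.8 and 73.6 after Sham and 25.1, 40.5 and 16.6 after UNx, and the groups overlapped (limma adjusted p = 0.179). One region between genes, 57777 bp downstream of the Pax8 start but 31170 bp from the Psd4 start, was at 0 in all Sham lists. It ranked at 27.1, 6.51 and 33.2 in the UNx lists (limma adjusted p = 0.194). It and the intronic Pax2 region were the only ones of the 118 found in every list of one group and absent from every list of the other. Over the study 1036 of all 99359 regions (1.04%) were in the 3 UNx lists alone and 928 in the 3 Sham lists alone.

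At Sall1, 11 of 12 tested regions had higher mean ranks after UNx, and 7 of 9 with ranking by fold enrichment. The median difference was 8.25 points, none passed the test, and 3 had all UNx values above all Sham values (background 12.0%). Osr1, Lhx1 and Wt1 had differences of −10.6 to 17.4 points over their 16 tested regions.

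At Six2 and Irx1 the strongest region away from the start was lower on average after UNx. The Six2 region at chr17:85664660-85665308 ranked at 77.1, 71.4 and 63.1 after Sham and at 57.1, 55.5 and 40.7 after UNx, with no overlap. The difference was −19.4 points (SE 6.93, limma adjusted p = 0.148). The Irx1 region 13638 bp downstream ranked at 68.1, 36.1 and 66.1 after Sham and at 32.6, 25.4 and 49.0 after UNx, where the groups overlapped (limma adjusted p = 0.268). Neither passed.

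Other genes of nephron development were also a mix of open and closed starts. Of 34 further transcription factors and cofactors, 21 had a start open in 6 of 6 lists and 6 were at 0 in all lists: Eya1, a cofactor that acts with Six2 in progenitors, Gata3 of the ureteric bud and collecting duct, Tfap2b, Sox11, Tcf21 of stroma and podocytes, and Uncx. Hnf4a, which drives proximal tubule differentiation, ranked at 86.7 ± 1.93 after Sham and 87.7 ± 1.44 after UNx (SD, n = 3 each). Osr2, the paralog of Osr1, had a far stronger start than Osr1, at 96.1 ± 1.64 and 91.2 ± 1.91. Of 2 further Iroquois genes, Irx3 was open in 6 lists and Irx5 in 3. None of the 26 that were tested passed, and at an unadjusted p under 0.05 there were 2 with higher ranks after UNx (Sox4 and Cited1) and 1 with lower ranks (Osr2), where 18.6% of all tested regions were past that threshold.

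Of 17 genes for the signals and receptors of nephron induction, 12 had a start open in 6 of 6 lists. The start of Gdnf, the mesenchyme's signal to the ureteric bud, was at 0 in all lists, as were those of Fgf8 and Bmp4. Ret, the receptor for Gdnf in the bud, was open in 5 lists with mean ranks of 9.40 after Sham and 7.78 after UNx. Its coreceptor gene Gfra1 was open in 6, at 82.5 and 79.9. Wnt4, which drives the mesenchyme to become epithelium, was open in 5 lists at 4.15 ± 6.41 after Sham and 23.8 ± 9.85 after UNx (SD, n = 3 each). Notch2, a receptor needed for proximal nephron fate, differed the other way, at 92.0 ± 1.99 after Sham and 82.7 ± 0.332 after UNx (limma adjusted p = 0.0704, against 0.267 at Wnt4). None of the 14 tested passed, and these were the only 2 with an unadjusted p under 0.05 (background 18.6%).

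The starts most like that of Pax8 over the 6 libraries were those of Ndnf, with a root mean square difference of 1.59 points, and of Nudt22 and Trpt1, which share a start region (1.70 points). For Pax2 they were Zfp459 (1.95), Msi2 (2.18) and Stk19 (2.25). In all, 530 genes lay within 5 points of Pax8 and 187 within 5 points of Pax2 by this measure, so the likeness is not rare.

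The short strings were rare among the 88 tested regions, searched on both strands within 100 bp of the strongest summit. HNF1 (GTTAATNAT) was found in 4 regions (4.55%, against 3.11% of all tested regions), 2 at Pax2 and 2 at Pax8. The PAX string GTCACGC was found in 3 (3.41% against 1.16%), 2 at Pax2 and 1 at Sall1, and one of them is the region 12850 bp upstream of Pax2. AP-1 (TGANTCA) was found in 3 (3.41% against 7.24%), SP/KLF (GGGGCGGGG) in 3 (3.41% against 4.35%), CTCF (AGGGGGCGC) in 2 (2.27% against 1.38%), HNF4 (CAAAGTCCA) in 1 (1.14% against 2.42%), TEAD (ACATTCCA) in 1 (1.14% against 1.43%) and ETS (ACCGGAAGT) in 0 (against 0.344%). With so few matches these shares only describe the regions, and a match does not show that a factor binds.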

How the data were processed

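ATAC-seq was made from microdissected S1 tubules, 3 Sham and 3 UNx libraries. Per the submitters' processing notes, cutadapt 3.4, Bowtie, SAMtools, Picard, MACS2 2.2.7.1 and mm10 were used, and settings and the role of each tool are not given in the sources used here. The authors deposited 1 narrowPeak list per library, giving each summit a position, a display score, a −log10 p, a −log10 q and a fold enrichment, which is a ratio of signal to local background. These are the authors' values. They were used to rank peaks within a list and, where stated, to limit the peaks or to describe a list or a start. No interval ended beyond a GRCm38 chromosome.

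Intervals on chromosomes 1 to 19, X and Y that held several summits were taken as 1 peak at the strongest. Lists were cut to 77355 peaks and ranked by −log10 q, and peaks overlapping by at least 1 bp were merged to 99359 regions. Regions in at least 3 lists (74781) were tested with limma 3.58.1 in R 4.3.3 (two-sided, with a robust variance trend, p-values adjusted by Benjamini-Hochberg over all tested regions). Numbers of peaks were tested as log2(number + 1). The limma step was checked on simulated data. Region values are the best peak of each list. Named regions were each gene's strongest start and strongest distal region, regions past the threshold, the 5 widest separated differences and regions in lists of 1 operation only. The Pax8 region 15149 bp upstream, the Pax2 regions 21081 and 31856 bp upstream, the Pax2 region beside its 3′ end, the Aatf start and the other development genes with values were chosen after their values were seen. The members, lists and rules were chosen with earlier results of these data known. Same-numbered libraries had deviations correlated at 0.00819, −0.100 and −0.0496 and were treated as unpaired. Some genes of the lists are not reported here by name.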

Additional observations from a re-analysis of the deposited data

How the results depend on the processing

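The main count of 589 regions past the threshold depended on the processing. It was 1583 with normal scores, 134 with a reciprocal overlap of 50%, 22 with all deposited peaks, 3 when peaks were ranked by fold enrichment, and 2 each without the minimum of lists per region, with the 20000 strongest peaks and with GC-corrected ranks, and 30 to 379 when any 1 of the 6 libraries was left out. The replicate block (replicate number as a block) gave 56, and 0 together with GC-corrected ranks, and it changed no call among the 10 genes. The cause was not tested. Among the regions of the 10 genes the count past the threshold was 0, and it was 2 with normal scores (at Pax2, 8350 bp upstream and beyond the 3′ end), 1 with peaks limited to −log10 q of 5 or more (the same 3′ region, limma adjusted p = 0.0484) and 1 with a reciprocal overlap of 50%. The last was the Six2 region, which that rule divides into an interval in Sham lists (mean rank 70.5 against 0, limma adjusted p = 0.0449) and one in UNx lists (0 against 51.1, limma adjusted p = 0.131). It was 0 whichever library was left out. For the Pax2 3′ region the limma adjusted p ran from 0.0281 to 0.261 over the alternatives. Of 23 named regions tested, 11 kept their sign under every alternative that gave a value. The count of genes past the threshold on the number of peaks was 0, and it was 1 with all deposited peaks, 71 with no filter, 229 with a 10 kb window, 360 with the 20000 strongest peaks and 255 to 397 without 1 library. Nearly all of those were genes with equal numbers within each group (67, 219 and 339 in the no-filter, 10 kb and 20000-peak counts), and none was among the 10 genes. Starts open in 6 of 6 lists fell from 7 to 2 of the 10 genes (Sall1 and Pax8) with the 20000 strongest peaks. With 3 libraries a group and no read counts, differences in the weaker peaks are limited by list cut-offs.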
